A study of Mus musculus with 2 samples.

Results

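The 10 genes described here encode ligands of the epidermal growth factor (EGF) family and the ErbB receptors to which they bind. They were taken by name from the 52636 genes of each of 2 RNA-seq count tables, and all 10 names were found once in both. There were 7 ligand genes (Areg, Ereg, Hbegf, Tgfa, Btc, Epgn and Egf) and 3 receptor genes (Egfr, Erbb2 and Erbb3). The set was selected on the KO to WT ratios of its genes in these same 2 libraries, so those ratios are given as a description with no test. The labels give 1 library from miR-29a KO mice, which lack the microRNA miR-29a, and 1 from wild-type (WT) mice. Both were made from retina of C57BL/6 mice aged 8 weeks, with tissue of 3 mice combined in each library. The labels do not say how the knockout was made or whether it was limited to a cell type. With 1 library per genotype there is no replicate, and every difference below is between these libraries and not shown to be between genotypes.

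EGF family ligands are made as membrane-anchored precursors and are cut free by ADAM proteases. A released ligand binds an ErbB receptor, which pairs with a second receptor, phosphorylates tyrosines on its tail and switches on the RAS to ERK and PI3K to AKT cascades. In the retina the pathway is known mainly from Mueller glia, which EGF can drive to divide, and in skin and connective tissue it is known for its part in wound repair.

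The libraries labelled KO and WT held 24876925 and 26805902 counts. Their content went against the labelled tissue, and the libraries also differed in a sex-linked RNA. Of 15 retinal neuron markers, 14 had fewer than 50 counts in both libraries, with the bipolar cell gene Grm6 at 0 in both. The remaining marker, Rbpms, had 790 counts in the library labelled KO and 885 in the library labelled WT. Fibroblast markers, by contrast, summed to 28188 and 26263 CPM (counts scaled to the library total). Of Mueller glia and astrocyte markers, Aqp4 had 0 counts in both libraries and Glul had 4219 in the library labelled KO and 3733 in the library labelled WT. The library labelled KO had 0 counts of Xist, the RNA of the inactive X chromosome, and the library labelled WT had 4288. Every ratio below therefore compares libraries that differ in Xist as well as in label, and the parts of sex and genotype cannot be told apart. Mir29a, the gene deleted according to the label, had 0 counts in both, which checks neither label. The libraries are therefore called by their labels throughout.

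Areg, Ereg and Hbegf were higher in the library labelled KO, whereas Egfr and Erbb2, the receptor genes with appreciable counts, were somewhat lower. The log2 ratio was taken as KO over WT after 0.5 was added to each CPM. A gene with 50 or more counts in either library was called higher from a ratio of 1 upward and lower from -1 downward. That minimum was passed by 7 of the 10 genes. Of these, 3 were called higher, 0 lower and 4 neither, and the other 3 (Epgn, Egf and Erbb3) had too few counts for a call. Across all 12382 genes past the minimum, 4.47% were called higher and 2.82% lower, 7.29% in all. Nothing is read from the contrast between these shares and the members' count, because the set was chosen with these ratios in view.

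Areg encodes amphiregulin, a ligand of EGFR that also binds heparin. It had 980 counts (39.4 CPM) in the library labelled KO and 154 counts (5.75 CPM) in the library labelled WT. This was 6.86-fold higher, with an exact 95% counting interval of 5.78 to 8.18, the widest difference among the members past the minimum. Its log2 ratio of 2.68 ranked 22 from the highest of all 12382 genes. Intervals here and below cover counting error only, and no variation between mice or library preparations. PCR copies of a molecule are not told apart, so the intervals may be too narrow even for counting error. Macrophage markers were also higher in the library labelled KO, where they summed to 1570 CPM, against 507 CPM in the library labelled WT, and their part in the levels of Areg, Ereg and Hbegf was not tested. In a bulk library fewer cells of a type and less RNA per cell cannot be told apart.

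Ereg encodes epiregulin, which binds EGFR and ErbB4. With 3933 counts (158 CPM) in the library labelled KO and 772 counts (28.8 CPM) in the library labelled WT, it was the member with the most counts in the first of these. The CPM ratio was 5.49 (5.08 to 5.94) and the log2 ratio 2.44, at rank 40. Its first 152 bases overlap the antisense gene Gm19610, which had 12 and 26 counts. The library kit does not mark strand, so reads in that overlap could belong to either gene, but Gm19610 held few reads beside those of Ereg.

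The promoters of Areg and Epgn are shown because Areg had the highest log2 ratio of the members and Epgn, a ligand gene of the same cluster and strand, was barely detected. RefSeq promoter windows (250 bases before to 50 after the start, GRCm38.p6) were at hand for 7 of the 10 genes and not for Ereg, Hbegf or Erbb3. They were searched on both strands for TGACGTCA (the cyclic AMP response element), TGANTCA (the AP-1 site) and TATAAA (the TATA box), no 2 of which can overlap. Capitals mark the matches, and positions are counted from 1 at the 5' end of the window. The window of Areg is chr5:91139349-91139648 and that of Epgn chr5:91027267-91027566, both on the plus strand.
Areg: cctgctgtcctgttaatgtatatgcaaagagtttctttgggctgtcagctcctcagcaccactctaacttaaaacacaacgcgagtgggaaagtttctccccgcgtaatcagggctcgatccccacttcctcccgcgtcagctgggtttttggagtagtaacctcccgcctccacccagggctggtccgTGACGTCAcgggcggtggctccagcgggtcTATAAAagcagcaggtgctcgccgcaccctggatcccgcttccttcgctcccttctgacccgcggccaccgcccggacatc
Epgn: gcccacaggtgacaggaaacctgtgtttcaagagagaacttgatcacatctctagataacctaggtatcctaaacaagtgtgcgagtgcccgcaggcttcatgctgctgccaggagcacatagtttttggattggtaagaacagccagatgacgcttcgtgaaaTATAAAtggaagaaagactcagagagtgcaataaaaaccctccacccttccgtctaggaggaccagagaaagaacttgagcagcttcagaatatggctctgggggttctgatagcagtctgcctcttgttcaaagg
Areg held the TGACGTCA letters at position 190 of its window and TATAAA at position 220, and Epgn held TATAAA at position 165. The windows of Btc, Tgfa, Egfr, Erbb2 and Egf (which has 2 windows) held none of the 3. Of 32851 mouse promoter windows, 1.79% held TGACGTCA, 7.81% TGANTCA and 13.6% TATAAA. A match describes the letters and does not show that a factor binds.

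Hbegf encodes heparin-binding EGF-like growth factor, which in humans is also the receptor for diphtheria toxin. Its counts were 751 (30.2 CPM) in the library labelled KO and 267 (9.96 CPM) in the library labelled WT, a ratio of 3.03 (2.63 to 3.50) and a log2 ratio of 1.55. For each of Areg, Ereg and Hbegf the whole counting interval lay above 2-fold, as it did for 3.0% of all genes past the minimum. The opposite, an interval wholly below 2-fold lower, held for no member and for 1.82% of all genes. Areg and Ereg also passed a 4-fold threshold (log2 ratio of 2 or more), as did 0.832% of all genes.

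Btc encodes betacellulin, a ligand of EGFR and ErbB4. At 170 counts (6.83 CPM) in the library labelled KO and 86 counts (3.21 CPM) in the library labelled WT, it stood just outside the threshold with a log2 ratio of 0.98. Its CPM ratio was 2.13 (1.63 to 2.79), and it was called higher when 0.1 instead of 0.5 CPM was added. With a correction for transcript GC content and length its log2 ratio was 0.65. Tgfa, which encodes transforming growth factor alpha, a ligand of EGFR, had 64 counts (2.57 CPM) in the library labelled KO and 68 counts (2.54 CPM) in the library labelled WT. Its interval of 0.709 to 1.45 around a ratio of 1.01 leaves room for a difference of up to that size in either direction. Tgfa thus had the smallest log2 ratio (0.02) of the ligands past the minimum.

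The remaining ligand genes were barely detected. Epgn, which encodes epigen, had 9 counts in the library labelled KO and 1 in the library labelled WT, a ratio of 9.70 with an interval from 1.34 to 425. Egf itself, the founding member of the family, had 8 counts in the library labelled KO and 5 in the library labelled WT (ratio 1.72, 0.497 to 6.70). At this depth a difference in Egf was not detectable.

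Egfr encodes the receptor shared by all 7 ligands. It had 2129 counts (85.6 CPM) in the library labelled KO and 3381 counts (126 CPM) in the library labelled WT, a ratio of 0.679 (0.642 to 0.717) and a log2 ratio of -0.56. Of all genes past the minimum, 90.2% had a higher log2 ratio. Erbb2 encodes a receptor with no known ligand of its own, which acts as a partner to the others. Its counts were 1259 (50.6 CPM) in the library labelled KO and 1794 (66.9 CPM) in the library labelled WT, a ratio of 0.756 (0.703 to 0.813) and a log2 ratio of -0.40. Of all genes past the minimum, 83.7% had a higher log2 ratio than Erbb2. Neither receptor reached the 2-fold threshold. Both counting intervals lay below 1, but how many of all genes had an interval clear of 1 was not counted. With the correction for transcript GC content and length the log2 ratios were -0.81 for Egfr and -0.23 for Erbb2. Erbb3, the neuregulin receptor with little kinase activity of its own, had 12 and 6 counts in the libraries labelled KO and WT (ratio 2.16, 0.749 to 6.998), too few to tell a direction.

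The members were also searched for miR-29 sites, since the labels name the loss of this microRNA. Mature miR-29a is shown with its seed (bases 2 to 8) in capitals, with the letters around the site in Egfr, in which capitals mark the heptamer that pairs with the seed.
mmu-miR-29a-3p: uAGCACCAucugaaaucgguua
Egfr site: tgctgattttgTGGTGCTgtgtggaccaa
In the longest annotated 3' UTR of each gene, Egfr held this heptamer once, within the 29 bases shown (chr11:16918064-16918092, plus strand, GRCm38), and the other 9 members held none. Of 11585 protein-coding genes past the minimum with a 3' UTR (median length 1225 bases), 16.1% held it, a share not matched for length. Their median log2 ratio was 0.14 with the heptamer and 0.05 without. Areg (253 bases), Ereg (3501 bases) and Hbegf (1456 bases), the genes called higher, had no such heptamer in their 3' UTR. Egfr, with 1, had the longest 3' UTR of the members (6303 bases) and a log2 ratio of -0.56. A match describes the letters only, and whether miR-29a acts on any member was not tested.

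**Figure D1:**
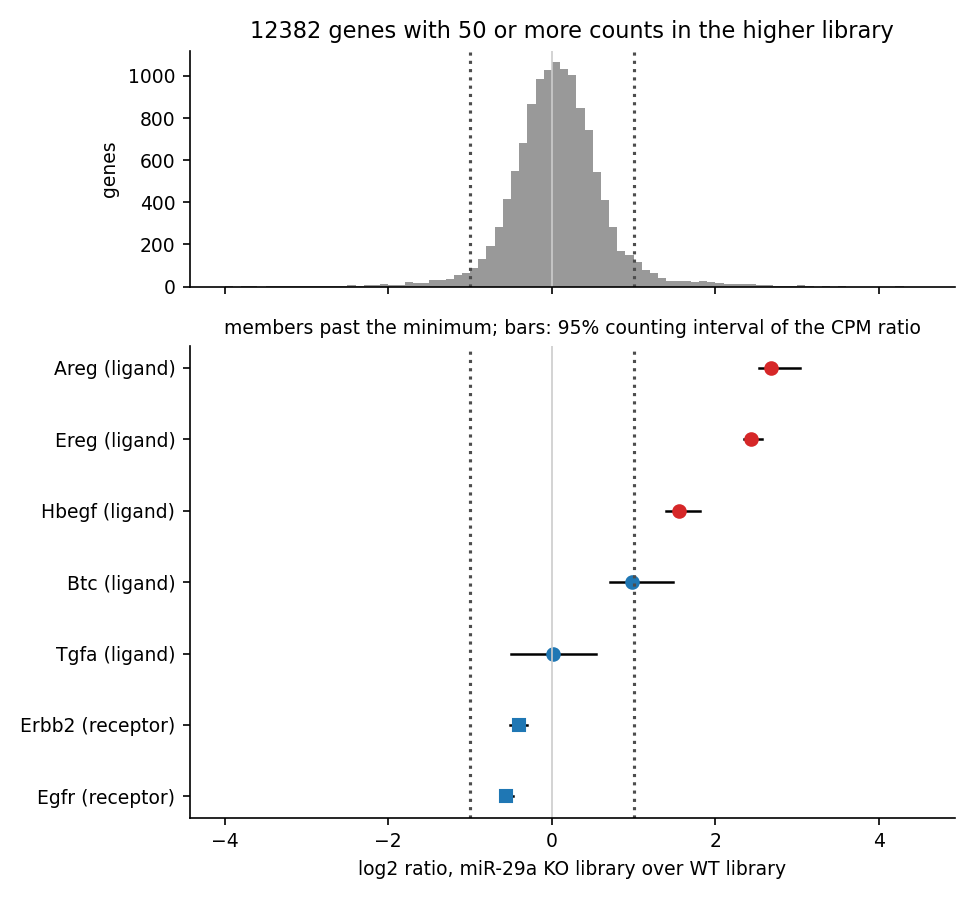
The upper panel gives the number of genes at each log2 ratio (KO over WT) for the 12382 genes past the count minimum, with values beyond the axis placed in the end bins. The lower panel gives the 7 members past the minimum, with circles for ligands, squares for receptors, red for genes called higher, blue for genes not called, bars for the 95% counting interval of the CPM ratio with no addition, and dotted lines at the threshold. Areg, Ereg and Hbegf lie above a log2 ratio of 1, Btc at 0.98, Tgfa at 0.02, Erbb2 at -0.40 and Egfr at -0.56.

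Levels of different genes can be compared only per length, for which the authors' deposited FPKM values (fragments per kilobase of transcript, scaled to library depth) were used. In the library labelled KO the order by FPKM was Ereg (39.0), Areg (33.0), Hbegf (12.9), Erbb2 (9.88), Egfr (7.69), Btc (1.54), Tgfa (0.403), Epgn (0.204), Erbb3 (0.0816) and Egf (0.0290). In the library labelled WT the FPKM order was Erbb2 (13.6), Egfr (11.8), Ereg (7.38), Areg (5.001), Hbegf (4.44), Btc (0.751), Tgfa (0.413), Erbb3 (0.0394), Epgn (0.0218) and Egf (0.0175). The 3 ligand genes Ereg, Areg and Hbegf thus stood above both receptor genes in the library labelled KO and below both in the library labelled WT. Neighbours in the order whose counting intervals overlapped were Tgfa and Epgn, Epgn and Erbb3, and Erbb3 and Egf in the library labelled KO. In the library labelled WT they were Areg and Hbegf, Erbb3 and Epgn, and Epgn and Egf.

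**Figure D2:**
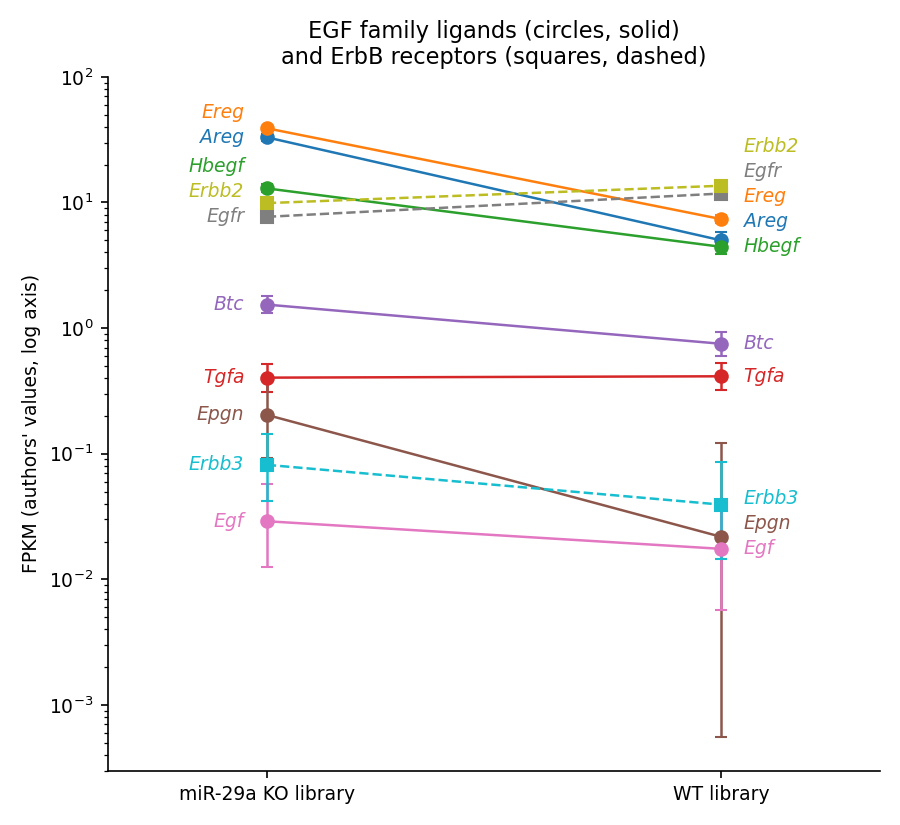
Each line joins the FPKM of a member in the library labelled KO (left) and in the library labelled WT (right) on a log axis, with circles and solid lines for ligands, squares and dashed lines for receptors, and bars for exact 95% counting intervals. The lines of Ereg, Areg and Hbegf cross those of Erbb2 and Egfr, and Tgfa is level at 0.403 and 0.413 FPKM.

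A ratio of 2 genes within a library does not depend on how the libraries were scaled. Per length, Ereg was 5.07 times Egfr in the library labelled KO (counting interval 4.81 to 5.35) and 0.626 times Egfr in the library labelled WT (0.579 to 0.678). The ratio of Areg to Egfr was 4.29 (3.97 to 4.63) in the library labelled KO and 0.425 (0.359 to 0.499) in the library labelled WT. For Hbegf over Egfr it was 1.68 (1.55 to 1.83) in the library labelled KO, against 0.377 (0.332 to 0.427) in the library labelled WT. All 3 ratios lay on opposite sides of 1 in the 2 libraries, with no overlap of intervals. How far they moved between libraries restates the KO to WT ratios on which the set was selected, and is no separate evidence. Among the ligands, Areg over Hbegf was 2.55 (2.32 to 2.81) in the library labelled KO and 1.13 (0.918 to 1.38) in the library labelled WT. Btc over Tgfa was 3.81 (2.85 to 5.17) in the library labelled KO and 1.82 (1.31 to 2.53) in the library labelled WT. For neither of these pairs did the intervals overlap, which again restates the KO to WT ratios and is no separate evidence. Ereg over Areg was closer, at 1.18 (1.10 to 1.27) in the library labelled KO and 1.48 (1.24 to 1.77) in the library labelled WT, with overlapping intervals. The receptor ratio of Egfr to Erbb2 was also closer, at 0.778 (0.725 to 0.835) in the library labelled KO and 0.867 (0.818 to 0.919) in the library labelled WT, and these intervals overlapped too. Overlap of intervals does not show that 2 ratios are the same.

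Summed over the 7 ligands, the FPKM was 87.1 in the library labelled KO and 18.02 in the library labelled WT, and over the 3 receptors 17.7 and 25.4. The ligand sum was therefore 4.93 times the receptor sum in the library labelled KO and 0.709 times in the library labelled WT. That contrast too restates the KO to WT ratios on which the set was selected. Areg and Ereg together made up 82.6% of the ligand FPKM in the library labelled KO and 68.7% in the library labelled WT. With Hbegf they made up 97.5% and 93.3%, so the sums describe these 3 genes rather than the family.

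Of the 7 ligand genes, 4 lie side by side on chromosome 5 (GRCm38), where Epgn (91027464 to 91035215), Ereg (91074622 to 91093646) and Areg (91139599 to 91148432) are on the plus strand and Btc (91357261 to 91402994) is on the minus strand. All 4 had a higher CPM in the library labelled KO, but Btc stood just under the threshold and Epgn had too few counts for a call. Within 500 kb on either side lie 30 other annotated genes, of which 8 passed the minimum and 5 of these were called higher and 0 lower, against 4.47% and 2.82% of all genes. The 5 comprised the chemokine genes Cxcl5, Ppbp, Pf4 and Cxcl3 and, on the far side of Btc, Parm1. Pf4, which encodes platelet factor 4, had 799 counts in the library labelled KO and 152 in the library labelled WT (ratio 5.66, 4.76 to 6.78). Ppbp, which encodes another platelet chemokine, had 129 and 35 counts (3.97, 2.72 to 5.95), and Cxcl3 had 11242 and 4547 (2.66, 2.57 to 2.76). Cxcl5, which encodes a neutrophil attractant, had 46687 and 22251 counts (ratio 2.26, 2.23 to 2.30), and Parm1 had 256 and 114 (2.42, 1.93 to 3.04). Among the others, the chemokine genes Cxcl1 and Cxcl2 had log2 ratios of 0.78 and 0.00, and Mthfd2l, the protein-coding gene next to Epgn, 0.29. Cxcl1, Cxcl2 and Mthfd2l, the 3 not called, lie between Cxcl3 and the ligand genes, so the genes called higher did not form 1 unbroken run.

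**Figure D3:**
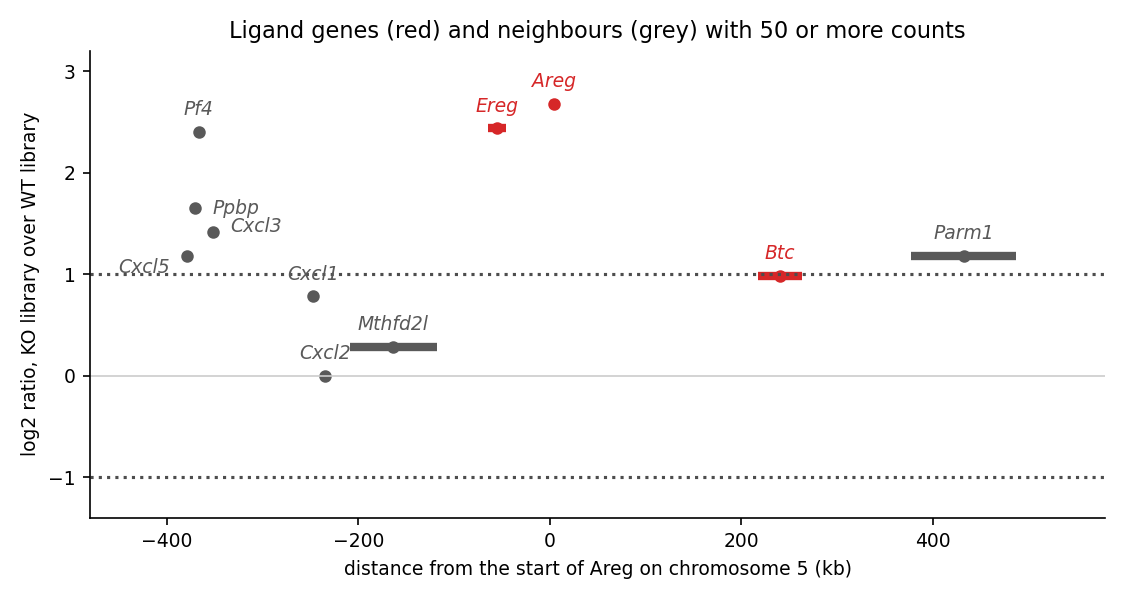
Log2 ratio (KO over WT) of genes with 50 or more counts around the ligand genes on chromosome 5, plotted by distance from the start of Areg in kb, with ligand genes in red, other genes in grey, bars for the extent of each gene and dotted lines at log2 ratios of 1 and -1. Areg and Ereg stand highest at 2.68 and 2.44, followed by Pf4 at 2.40, and Cxcl2 lies at 0.00.

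The rest of the family was scarce. Nrg1, which encodes a neuregulin that binds ErbB3 and ErbB4, was the only gene past the minimum among the neuregulins and Erbb4. It had 74 counts in the library labelled KO and 22 in the library labelled WT (ratio 3.62, 2.23 to 6.13), and it was not called higher with 2 CPM added, with a minimum of 200 counts or on FPKM. Erbb4, the neuregulin receptor with full kinase activity, and Nrg3 had 0 counts in both libraries, which allows up to 0.121 CPM in the library labelled KO and 0.112 CPM in the library labelled WT. Nrg2 had 15 and 5 counts, and Nrg4 had 3 and 1.

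Of the genes that free the ligands or restrain the receptors, none with enough counts passed the 2-fold threshold. Of all genes past the minimum 7.29% did, in either direction, and these lists are too short to be told from that share. The exception to detection in both libraries was the protease gene Rhbdl2, with 10 counts in the library labelled KO and 0 in the library labelled WT. The median log2 ratio was 0.35 over the 7 of 8 shedding genes with enough counts, against 0.06 over all genes. Adam17, the main sheddase for Areg, Ereg and Hbegf, had 1520 counts in the library labelled KO and 1142 in the library labelled WT (log2 ratio 0.52). Frmd8, which stabilises ADAM17 at the cell surface, had the most counts of the list, 3541 and 3998, and the protease gene Adam10 had 2764 and 1840 (log2 ratio 0.69). For the 15 restraining genes matched in the tables, all with enough counts, the median was 0.36. The phosphatase gene Ptprj, with 443 counts in the library labelled KO and 237 in the library labelled WT, had a log2 ratio of 0.97 and was called higher when 0.1 instead of 0.5 CPM was added. Dcn, which encodes decorin, a matrix proteoglycan that can bind EGFR, reached 47148 counts in the library labelled KO and 26680 in the library labelled WT (log2 ratio 0.93). Errfi1, an inhibitor induced by EGFR itself, had 12168 and 8983 counts (log2 ratio 0.54).

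Downstream, the 21 adaptor and kinase genes were close to level, with 0 called, against 7.29% of all genes past the minimum. Their median log2 ratio was 0.06 in a range from -0.35 to 0.59. The kinase gene Akt1 had 11038 counts in the library labelled KO and 12171 in the library labelled WT, and Shc1, an adaptor that binds activated receptors, had 9556 and 13125. Of 22 genes known to be induced by ERK, 1 was called higher and 1 lower, against 4.47% and 2.82% of all genes. Counts this small cannot be told from those shares, and the median log2 ratio was 0.25. The ERK phosphatase gene Dusp5 had 1483 counts in the library labelled KO and 592 in the library labelled WT (ratio 2.70, 2.45 to 2.97), and the feedback inhibitor gene Spry1 had 352 and 853 (ratio 0.445, 0.392 to 0.504). After the correction for transcript GC content and length 3 genes of the list were called higher and 0 lower, so that Spry1 was no longer called. Emp1, at 22335 and 18856 counts, and Ier3, at 17265 and 12943, had the most counts of the list. The immediate early gene Egr1, at 1413 and 1394 counts, and Dusp6, at 2611 and 2300, were among the 20 not called.

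Among 13 genes often induced beside these ligands in wounded or mitogen-treated fibroblasts, 3 were called higher, 0 lower and 10 neither. The shares of all genes were 4.47% higher and 2.82% lower, and the median log2 ratio of the list was 0.52. With edgeR's TMM factors, with median-of-ratios factors, on FPKM or with the GC correction, 2 were higher and 1 lower. The list was drawn up with results of these libraries known and is no independent evidence. Serpinb2, which encodes the inhibitor PAI-2, had 4581 counts in the library labelled KO and 572 in the library labelled WT (ratio 8.63, 7.91 to 9.43). Ptgs2, which encodes the prostaglandin synthase COX-2, had 41407 and 14452 counts (ratio 3.09, 3.03 to 3.15), and the cytokine gene Il11 had 26018 and 13937 (2.01, 1.97 to 2.05), at the edge of the threshold. Il1rl1, the receptor gene for interleukin 33, was lower with 5022 and 10689 counts (log2 ratio -0.98), and Mmp3 had 16337 and 18406 counts (log2 ratio -0.06).

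Macrophage markers and some endothelial markers stood higher with the ligands in the library labelled KO. Among 14 macrophage markers, 13 passed the minimum and 12 of these were called higher in the library labelled KO and 0 lower. Their median log2 ratio was 1.96, and of all genes 4.47% were called higher and 2.82% lower. Lyz2, the macrophage lysozyme gene, had 21052 counts in the library labelled KO and 5827 in the library labelled WT, whereas Cd14, which encodes a co-receptor for endotoxin, had 2828 and 3412. Of 7 endothelial markers past the minimum, 4 were called higher and 0 lower, against the same shares of all genes (list sums 50.3 and 26.8 CPM). Cdh5 alone had 23.2 CPM in the library labelled KO and 6.53 CPM in the library labelled WT. The 3 not called were Tek (167 and 176 counts), Emcn (163 and 212) and Erg (85 and 55). Epithelial markers were scarce, at 16.8 and 18.8 CPM summed over 12 genes, with Krt14, Krt12, Grhl2 and Esrp1 at 0 in both libraries. Of the 3 that passed the minimum, the keratin gene Krt19 was called lower, with 21 counts in the library labelled KO and 92 in the library labelled WT (log2 ratio -1.55), and 0 were called higher. Mast cell and basophil markers, 5 genes, summed to 3.06 and 3.39 CPM. Markers of Schwann cells, which rely on ErbB3, summed to 11.6 CPM in the library labelled KO and 14.5 CPM in the library labelled WT without Erbb3 itself, mostly from Ncam1. Fibroblast markers had 0 of 10 called and a median log2 ratio of 0.28. The part of endothelial RNA in the levels of the ligands was likewise not tested.

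**Figure D4:**
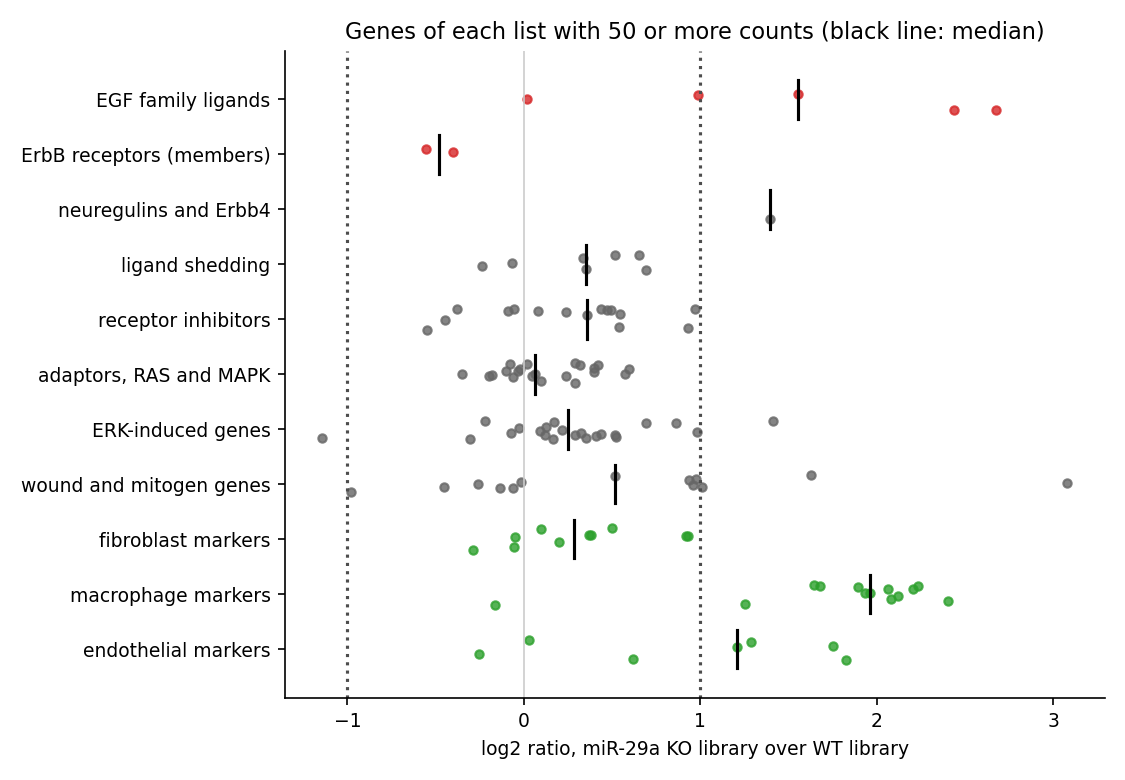
Log2 ratio (KO over WT) of each gene with 50 or more counts, by list, with members in red, other pathway genes in grey, cell type markers in green, black lines for medians and dotted lines at log2 ratios of 1 and -1. The vertical placement within a row is arbitrary. Adaptor and kinase genes centre at 0.06, and macrophage markers at 1.96.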

How the data were processed

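RNA was measured by RNA-seq in 1 library labelled miR-29a KO and 1 labelled WT, each from 3 pooled mice. Per the labels' protocols, ribosomal RNA was depleted (Ribo-Zero) before NEBNext Ultra library preparation. Per the submitters' processing notes, HISAT2 and the build mm10 (GRCm38) were used. The read counter, its annotation and the FPKM scaling were not given in the sources used here. A count and an FPKM were deposited by the authors for every gene, per the file headers, and both were used unchanged. GENCODE M21 (GRCm38) gave positions for 52489 of 52636 genes by identifier, and 3' UTRs for protein-coding ones. From the ratios 4 genes were dropped, as their count per FPKM was over 1% apart in the 2 tables.

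Counts were divided by the library total (24876925 for KO and 26805902 for WT) to give CPM. Ratios of CPM have exact 95% Clopper-Pearson intervals, and single levels exact Poisson intervals. A count of 0 was read as allowing up to 3 counts. No test was possible with 1 library per group. The members, gene lists and thresholds were chosen with earlier results of these data known. All members were named, as were genes past 2-fold within 500 kb of a member. Of each pathway list, genes past 2-fold were named, with the 2 of most counts in the library labelled KO. Other genes named, cell type markers among them, were chosen after their values were seen, and most markers were not named. A listed symbol, Nrdp1, was not matched in the tables, but it is an alias of Rnf41. That gene is on the same list and was matched, with 1582 counts in the library labelled KO and 1770 in the library labelled WT. The procedure was tried on simulated counts that held counting error only, so that check covers no other source of difference between libraries. Alternatives are given in the closing section. Normalization factors came from edgeR 4.0.16 under R 4.3.3. The other steps ran in Python 3.11.15 with scipy 1.17.1, pandas 2.3.3, numpy 2.4.6 and, for figures, matplotlib 3.10.9.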

Additional observations from a re-analysis of the deposited data

How the results depend on the processing

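The members called higher were Areg, Ereg and Hbegf under 8 of 11 alternatives. Btc joined them with 0.1 CPM added or a threshold of 1.5-fold, and Hbegf dropped out at a threshold of 4-fold. No member was called lower under any of the 11. The log2 ratio ranged from 2.42 to 2.76 for Areg, 2.11 to 2.45 for Ereg, 1.43 to 1.59 for Hbegf, 0.65 to 1.07 for Btc, -0.05 to 0.02 for Tgfa, -0.46 to -0.23 for Erbb2 and -0.81 to -0.55 for Egfr. The median over the members past the minimum, 0.98, was 0.76 with 2 CPM added, 1.55 with a minimum of 200 counts, 0.56 with no minimum, 0.70 on FPKM and 0.65 with the correction for transcript GC content and length. The lowest values of Ereg, Btc and Egfr and the highest of Erbb2 came from that correction. Across the 12371 tested genes with a known transcript GC content, the log2 ratio had a Spearman rho of -0.441 with that content, which was 39.2% for Ereg, 37.7% for Btc, 44.4% for Egfr and 57.3% for Erbb2, against a median of 49.9%.

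Counts over all genes, 554 higher and 349 lower, were 351 and 214 with 2 CPM added, 340 and 213 with a minimum of 200 counts, 1645 and 1100 at 1.5-fold, and 103 and 58 at 4-fold. On FPKM with 0.5 added, 322 were higher. The cause was not tested beyond the construction of each setting. No paired analysis was possible because each group has 1 library. With counts of 12 or fewer, Epgn, Egf and Erbb3 are limited by depth.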

Other observations

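Neighbours of the members outside chromosome 5 were counted in the same way. The counts stand against 4.47% of all genes called higher and 2.82% lower, 7.29% in all, and most are too small to compare with these shares. Within 500 kb of Egfr, 3 of 9 genes past the minimum were called higher, among them Plek, which encodes pleckstrin, a protein of blood cells (611 counts in the library labelled KO and 172 in the library labelled WT), and Pno1 (364 and 142 counts). The third was Gm12663, a processed pseudogene, whose reads are uncertain. Near Hbegf 1 of 17 genes was called lower, Dnd1 (13 and 59 counts), and near Erbb2 1 of 23, Pgap3 (141 and 352 counts). Of 40 genes near Erbb3, Stat2, a mediator of interferon signalling, was called lower (762 and 1932 counts) and Sarnp higher (229 and 81). Near Tgfa 2 of 18 were called, Add2 higher (90 and 36 counts) and the processed pseudogene Gm10443 lower (1356 and 3011), and near Egf 0 of 9.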
